A study of Mus musculus with 12 samples.

Results

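A set of 10 genes that mark epithelial and mesenchymal cell states was followed through 12 subcutaneous MC38 tumors: Krt7, Krt8, Krt18, Krt19, Epcam, Cdh1, Cdh2, Vim, Zeb1 and Snai1. They were taken by symbol from a table of read counts with 23282 rows, of which 19137 had a read in at least 1 tumor, and all 10 were found. MC38 is a mouse colon carcinoma line. It was grown in the right flank of 6-week-old female C57BL/6 mice with the genotype given as WT, and tumor RNA was profiled on day 19. The study compared 4 groups of 3 tumors each. Control mice (Con) received saline with 1% DMSO and 1% Tween 80 together with an IgG2a antibody. SFIH mice received the IgG2a antibody and 50 mg/kg of a sesquiterpene lactone-rich hexane fraction of Inula helenium root every day into the peritoneum. PD mice received 200 μg of an antibody against PD-1, an inhibitory receptor of T cells, 2 times a week. Comb mice received both. The samples are labelled tumor cells, but the RNA was extracted from tumor tissue, so that host cells could contribute to it. The methods place the injected cells in the right flank only, but neither they nor the labels state that the 3 tumors of a group came from separate mice, and p-values measure the spread between these samples.

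Keratins 7, 8, 18 and 19 are the intermediate filament proteins of simple epithelia, and Krt8 protein assembles with Krt18. Epcam and E-cadherin (Cdh1) hold epithelial cells together. In an epithelial to mesenchymal transition (EMT), transcription factors such as Snai1 and Zeb1 bind E-box sequences in the promoters of epithelial genes and repress them, while N-cadherin (Cdh2) and vimentin (Vim), the intermediate filament of mesenchymal cells and leukocytes, rise. In a whole tumor the same transcripts also come from skin, glands, stroma and immune cells, and fewer cells of a type and less RNA per cell cannot be told apart.

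Krt7, Krt8, Krt18 and Epcam, members that like Krt19 were highest in the same tumor, are shown by the 250 bases that precede their annotated start, as RefSeq gives them for GRCm38.p6. Capitals mark the E-box CACCTG or its reverse complement CAGGTG, the letters that the Snai and Zeb factors are known to bind. The windows lie at chr15:101412153-101412402 on the plus strand for Krt7, chr15:102004343-102004592 on the minus strand for Krt8, chr15:102027966-102028215 on the plus strand for Krt18 and chr17:87635729-87635978 on the plus strand for Epcam.
Krt7: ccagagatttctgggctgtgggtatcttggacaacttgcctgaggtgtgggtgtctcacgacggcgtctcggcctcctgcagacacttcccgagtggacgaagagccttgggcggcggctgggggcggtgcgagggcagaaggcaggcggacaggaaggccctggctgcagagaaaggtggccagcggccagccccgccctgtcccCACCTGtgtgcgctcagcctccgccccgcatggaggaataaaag
Krt8: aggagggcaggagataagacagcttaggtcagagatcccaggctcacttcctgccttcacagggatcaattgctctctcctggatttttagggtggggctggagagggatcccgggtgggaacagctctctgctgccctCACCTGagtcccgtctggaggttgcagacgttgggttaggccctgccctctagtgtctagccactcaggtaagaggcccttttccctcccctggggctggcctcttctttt
Krt18: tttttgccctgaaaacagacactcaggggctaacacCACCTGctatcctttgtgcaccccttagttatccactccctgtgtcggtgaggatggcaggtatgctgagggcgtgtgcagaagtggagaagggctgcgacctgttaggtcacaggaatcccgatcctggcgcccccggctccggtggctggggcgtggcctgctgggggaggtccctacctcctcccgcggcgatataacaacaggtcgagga
Epcam: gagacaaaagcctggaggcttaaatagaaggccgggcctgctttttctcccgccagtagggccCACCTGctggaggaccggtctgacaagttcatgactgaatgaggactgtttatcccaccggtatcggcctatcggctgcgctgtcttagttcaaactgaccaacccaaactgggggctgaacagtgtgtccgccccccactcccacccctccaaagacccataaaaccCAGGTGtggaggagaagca

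Counted to its first base, the E-box stood 44 bases before the start of Krt7, 111 before Krt8 and 214 before Krt18. Epcam held 2, at 187 and 19 bases. Of the 10 members, 6 matched the promoter table, and 5 of the 6 held the E-box at least once. Snai1 held it 126 bases before its start, and Vim held none in this window. Among all 32851 windows of 250 bases in that table, 17.2% held at least 1 E-box and 2.06% held 2 or more. Such a match describes letters only. Krt8 and Krt18 are neighbors on opposite strands with 0 protein-coding genes between them.

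Each tumor had 7870741 to 12261032 counted reads (median 9932321). The 3′ protocol reads 1 end of each transcript, so read numbers do not scale with transcript length. Levels are given as CPM, counts scaled to a common library total, or as log2(CPM + 1). A single read was worth about 0.1 CPM, and a count of 0 allowed a level of up to 3 reads, between 0.245 and 0.381 CPM depending on the tumor. Comb replicate 3 stood apart from the other 11 libraries. Its TMM factor, the scaling of its library size in the tests, was 0.76 against 0.884 to 1.12 elsewhere. Its summed levels of muscle, skin, leukocyte, fibroblast and adipocyte markers were the highest of all tumors. Values without it are given beside many of the results. The labelled origin was also compared with its markers. Of 15 genes of colon epithelium, 8 did not exceed 3 reads in any tumor, and the intestinal factor Cdx2 never exceeded 1 read. The summed level of the 15 genes was 1.88 to 9.79 CPM.

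Epithelial transcripts were scarce in most of these tumors and Vim was abundant in all of them. Krt8 was counted 7, 9 and 8 times in the Con tumors, 4, 20 and 6 times in SFIH, 1, 6 and 0 times in PD, and 8, 26 and 255 times in Comb. The Con tumors were alike, PD replicates 1 and 3 were below all of them while PD replicate 2 was within their range in CPM, and in Comb 1 tumor was far above the other 2. In CPM, Krt8 was 0.791 ± 0.149 in the Con tumors, 0.863 ± 0.696 in the SFIH tumors, 0.29 ± 0.413 in the PD tumors and 8.89 ± 12.5 in the Comb tumors (SD, n = 3). For scale, the 8 reads of Con replicate 3 are 0.798 CPM with an exact 95% Poisson interval of 0.345 to 1.57, the 0 reads of PD replicate 3 allow up to 0.314 CPM by the limit of 3 reads and up to 0.386 CPM by the same exact interval, and the 255 reads of Comb replicate 3 are 23.2 CPM (20.5 to 26.3). These intervals and limits cover counting error only. Krt18, the partner of Krt8, was counted 5, 3 and 2 times in the Con tumors, 5, 14 and 1 times in the SFIH tumors, 0, 18 and 1 times in the PD tumors, and 6, 42 and 219 times in the Comb tumors. All 3 Comb tumors were above all 3 Con tumors, as were 7.6% of all genes tested. The lowest Comb tumor exceeded the highest Con tumor by a single Krt18 read.

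Krt19, the keratin of simple and ductal epithelia, was counted 7, 5 and 1 times in the Con tumors, 0, 22 and 1 times in the SFIH tumors, 2, 21 and 3 times in the PD tumors, and 2, 41 and 237 times in the Comb tumors. The second replicate was the highest tumor of SFIH and of PD, and in Comb replicates 2 and 3 were above every other tumor. Krt7, the keratin of ducts and glands, was counted 5, 8 and 3 times in the Con tumors, 2, 4 and 1 times in the SFIH tumors, 0, 28 and 3 times in the PD tumors, and 1, 23 and 248 times in the Comb tumors. Here PD replicate 2 was above Comb replicate 2, and SFIH held no raised tumor. Epcam, the epithelial cell adhesion molecule, was counted 0, 3 and 2 times in the Con tumors, 2, 14 and 0 times in the SFIH tumors, 0, 2 and 3 times in the PD tumors, and 7, 22 and 85 times in the Comb tumors. No Con or PD tumor exceeded 3 Epcam reads, so that each of these tumors was at or below the limit of 3 reads. All 3 Comb tumors were above them. Of all genes tested, 7.6% were likewise higher in every Comb than in every Con tumor, and 4.25% than in every PD tumor.

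**Figure D1:**
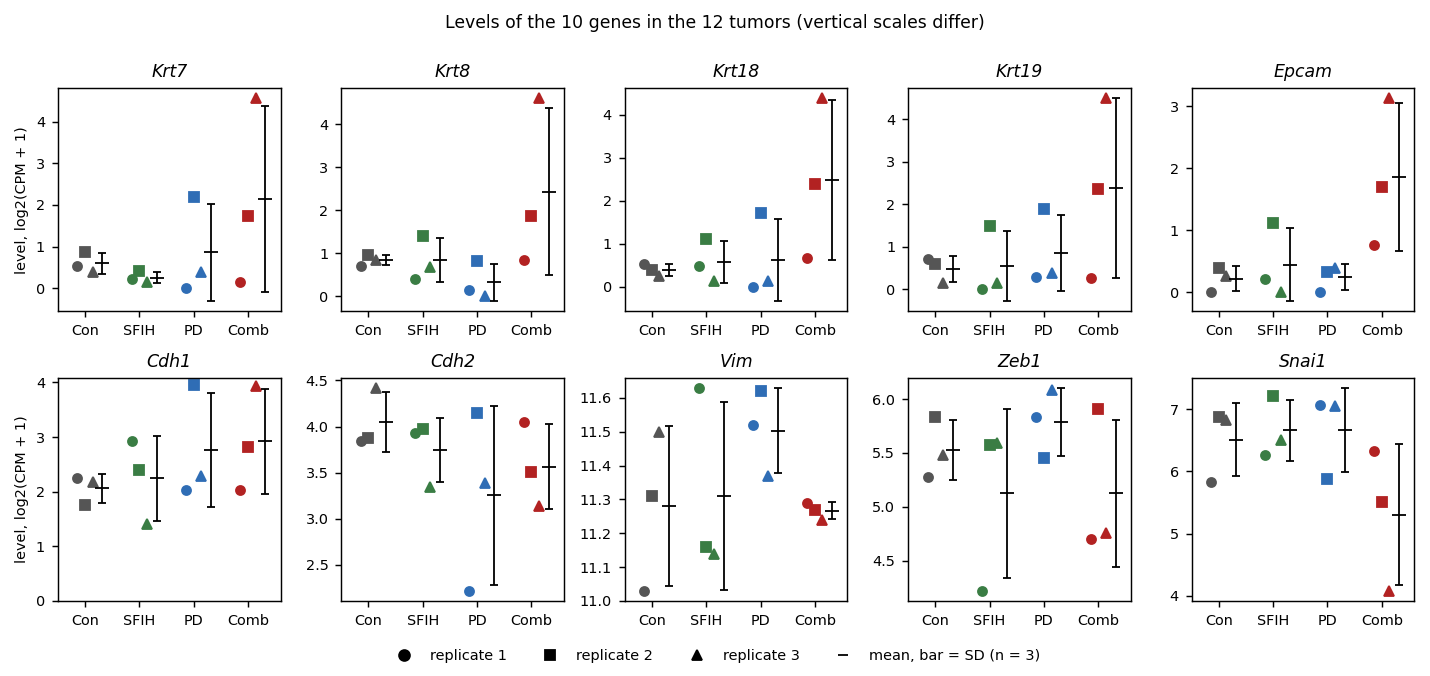
Level of each gene as log2(CPM + 1) (vertical axes, which differ between panels) by treatment group (horizontal axes), with 1 symbol per tumor and the mean and SD over 3 tumors beside them. The Comb symbols of the 4 keratins and Epcam spread widely, with replicate 3 on top, whereas Vim varied by less than 1 unit over all 12 tumors.

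The reads of the 4 keratins and Epcam were concentrated in the same tumor. Comb replicate 3 held 76.1% of all Krt7 reads in the 12 tumors, 72.9% of Krt8, 69.3% of Krt18, 69.3% of Krt19 and 60.7% of Epcam, against 8.33% of the Vim reads. Summed over the 4 keratins, the level was 87.3 CPM in Comb replicate 3, 13.4 in Comb replicate 2, 9.27 in PD replicate 2 and 4.95 in SFIH replicate 2. In the other 8 tumors it was 0.323 to 2.6 CPM. The 4 raised tumors came from the 3 treated groups, each of which also held at least 1 tumor at 1.68 CPM or lower, and the Con tumors were at 1.4 to 2.6 CPM.

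Because all 4 keratins and Epcam are made by host epithelia too, markers of other tissues were read in the same tumors. The summed level of 16 measured genes of skin epidermis was 33.5 to 65.1 CPM in the Con tumors, 34.9 to 124 in the SFIH tumors, 14.4 to 35.3 in the PD tumors and 17.3 to 603 in the Comb tumors. The 603 CPM were those of Comb replicate 3, in which the basal keratins Krt5 and Krt14 had 834 and 278 reads. SFIH replicate 1 was second with 124 CPM and 225 Krt14 reads, yet its 4 simple keratins summed to 0.897 CPM. Comb replicate 2 had 17.3 CPM of skin markers, at the low end of the 12 tumors, with 13.4 CPM of simple keratins.

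Markers of the other tissues followed the keratins in some tumors and not in others. For 16 genes of skeletal muscle the sum was 22.4 to 32.6 CPM in the Con tumors, 32.3 to 80.4 in the SFIH tumors, 16.3 to 205 in the PD tumors and 22.5 to 7600 in the Comb tumors. Comb replicate 3 had 7600 CPM and Comb replicate 1 had 908, but the keratins of Comb replicate 1 summed to 1.68 CPM. PD replicate 2 and Comb replicate 2, both raised in keratins, had 16.3 and 22.5 CPM of muscle markers. For 12 genes of the mammary gland, which lies under the flank skin of female mice, the sum was 6.66 to 10.4 CPM in the Con tumors, 6.65 to 13.1 in the SFIH tumors, 6.23 to 9.1 in the PD tumors and 8.91 to 26.3 in the Comb tumors. Of these 12 genes, 6 did not exceed 3 reads in any tumor, and the milk protein gene Csn2 was at 0 in all of them. Comb replicates 2 and 3 had the highest mammary sums, 26.3 and 23.3 CPM. In Comb replicate 3 only Esr1 (13.4 CPM), Prlr (5.74) and Wfdc18 (4.19) of this list had reads. Esr1 was at 4.91 to 13.4 CPM over all tumors and at 5.41 to 8.78 in the Con tumors. Prlr (10.7) and Glycam1 (5.69) were highest in Comb replicate 2.

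The sums of leukocyte and fibroblast markers were also highest in Comb replicates 3 and 2. The 12 leukocyte genes summed to 578 to 1050 CPM in the Con tumors, 798 to 1180 in the SFIH tumors, 978 to 1750 in the PD tumors and 1120 to 7410 in the Comb tumors. The 12 genes of fibroblasts and pericytes summed to 351 to 392 CPM in the Con tumors, 397 to 458 in the SFIH tumors, 443 to 664 in the PD tumors and 420 to 2620 in the Comb tumors. In Comb replicate 3, Serping1, Gsn and Dpt had the largest values of this list, 775, 729 and 549 CPM. Fbln1, Fap, Clec3b and Col14a1 were also highest in that tumor, and Pi16 was above its median. Pdgfra (43.3 CPM) and Cspg4 (0.0911) were instead lowest there of all tumors. Pdgfrb (17.9) and Rgs5 (6.01) were below their medians of 32.8 and 8.13. Adipocyte markers (10 genes) reached 693 CPM in Comb replicate 2 and 2390 in Comb replicate 3, against 143 to 295 in the other 10 tumors. In Comb replicate 3 the largest values of this list were Lpl at 1310 CPM and Fabp4 at 795. Cfd, Car3, Retn, Plin1 and Lep were also highest there. Adipoq and Cidec were highest in Comb replicate 2, and Plin4, at 17 CPM in Comb replicate 3, was lowest there of all tumors. Endothelial markers (11 genes) differed least, with 113 to 178 CPM in Con and 154 to 200 in Comb. The part of these tissues in the keratin and Epcam reads was not tested.

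**Figure D2:**
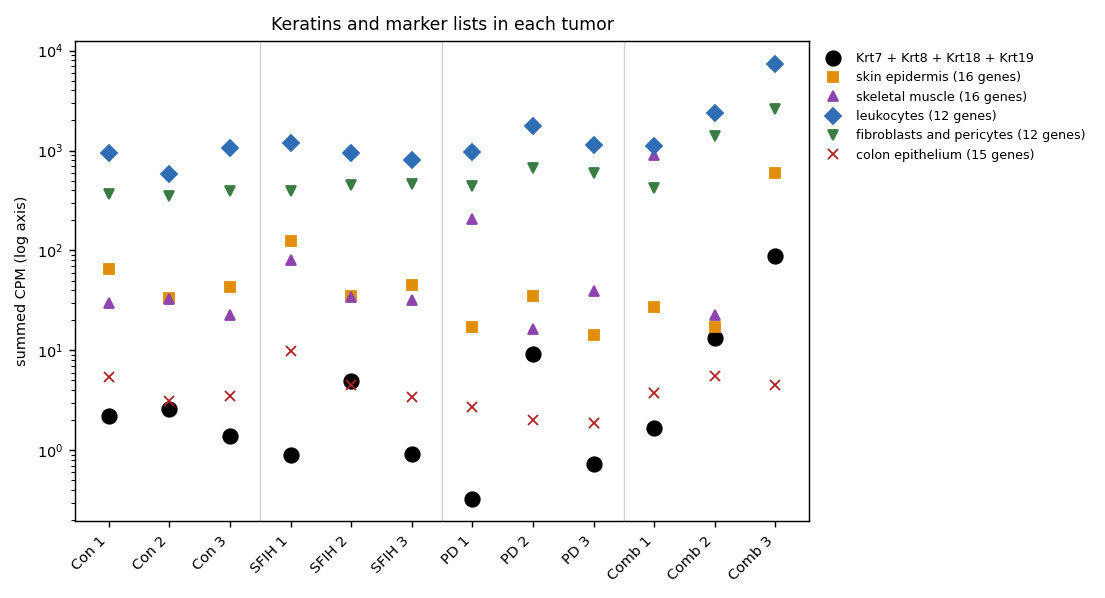
Summed CPM (vertical log axis) of the 4 keratins and of 5 lists of marker genes in each of the 12 tumors (horizontal axis, group and replicate). The keratin sum was highest in Comb replicate 3 at 87.3 CPM, where every plotted list except colon epithelium was also highest, while SFIH replicate 1, second in skin markers, had 0.897 CPM of keratins.

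Cdh1 and Cdh2, the paired cadherins of the epithelial and mesenchymal states, were both measurable in all 12 tumors. Cdh1 was counted 41, 23 and 35 times in the Con tumors, 81, 52 and 16 times in the SFIH tumors, 29, 115 and 37 times in the PD tumors, and 31, 59 and 157 times in the Comb tumors. Comb replicate 3 and PD replicate 2 were nearly level at 14.3 and 14.6 CPM, and the other 10 tumors lay between 1.64 and 6.61 CPM. Cdh2 was counted 146, 132 and 204 times in the Con tumors, 174, 178 and 90 times in the SFIH tumors, 34, 132 and 91 times in the PD tumors, and 157, 102 and 86 times in the Comb tumors. The groups overlapped throughout. PD replicate 1 was lowest at 3.66 CPM and Con replicate 3 highest at 20.4 CPM.

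Vim was the most even member. It had 22977, 24436 and 29085 reads in the Con tumors, 38945, 27641 and 22041 in the SFIH tumors, 27225, 24768 and 25325 in the PD tumors, and 25301, 24268 and 26549 in the Comb tumors. The highest tumor exceeded the lowest 1.52-fold in CPM, and Vim ranked between place 7 and place 36 of all genes in every tumor. The ratio of Vim to keratin varied with the keratins. There were 957 to 2078 Vim reads for each read of the 4 keratins in the Con tumors, 461 to 3540 in the SFIH tumors, 339 to 9075 in the PD tumors and 28 to 1488 in the Comb tumors. In the 3 PD tumors Vim was above its level in all 3 Comb tumors (2650 to 3150 against 2420 to 2510 CPM). Over all tested genes 8.42% were likewise higher in every PD than in every Comb tumor, and after TMM scaling the log2 fold change of Vim, Comb against PD, was -0.062 ± 0.2 (SE).

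Zeb1 and Snai1, transcriptional repressors of epithelial genes, were both expressed in every tumor. Zeb1 had 416, 537 and 436 reads in the Con tumors, 216, 562 and 462 in the SFIH tumors, 518, 337 and 638 in the PD tumors, and 253, 580 and 286 in the Comb tumors. SFIH replicate 1 and Comb replicates 1 and 3 were low at 17.6, 25.1 and 26 CPM, and the other 9 tumors lay above them. Snai1 had 612, 1114 and 1127 reads in the Con tumors, 933, 1788 and 872 in the SFIH tumors, 1230, 456 and 1261 in the PD tumors, and 794, 434 and 175 in the Comb tumors. Comb replicate 3 was lowest at 15.9 CPM, followed by Comb replicate 2 at 44.1, and the 2 were the only tumors below the lowest Con tumor at 55.8 CPM. On the log2(CPM + 1) scale Snai1 was 6.51 ± 0.59 in the Con tumors, 6.66 ± 0.49 in the SFIH tumors, 6.66 ± 0.68 in the PD tumors and 5.3 ± 1.13 in the Comb tumors (SD, n = 3).

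Whether the treatments changed these genes was tested with edgeR's quasi-likelihood test on the counts of all 12 tumors, with Benjamini-Hochberg adjustment over the 13464 genes that passed its filter on low counts. All 10 members passed it. The 4 keratins and Epcam passed through a few tumors with more reads, since 2 to 8 tumors of each had 3 reads or fewer. The fold changes of Epcam over Con and PD are fitted values over tumors with 0 to 3 reads, and their size is uncertain. Comparisons that share the Con or the Comb tumors are not independent of each other.

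The comparison of Comb with Con asks what both agents together changed. The keratins and Epcam had the largest differences of the 10 members. Their log2 fold changes were 4.41 ± 1.68 for Krt7, 3.93 ± 1.29 for Krt8, 5.05 ± 1.58 for Krt18, 4.75 ± 1.74 for Krt19 and 4.73 ± 1.44 for Epcam (SE). None passed the edgeR threshold, and the adjusted p-values were 0.14, 0.099, 0.0886, 0.127 and 0.0837. At an adjusted p under 0.05, edgeR called 0 of 10 members and 0 of 13464 genes (0.0%). At an unadjusted p under 0.05 these 5 were higher in Comb, as were 18.0% of all genes tested. DESeq2 called the same 5 members (adjusted p 0.00569 to 0.0277), beside 14.9% of the genes it tested. Cdh1 was at 1.66 ± 0.78 (edgeR adjusted p = 0.208), or 0.69 without Comb replicate 3, and Snai1 at -0.84 ± 0.47 (adjusted p = 0.275).

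The edgeR values moved with single tumors. Without Comb replicate 3, the edgeR log2 fold changes were 1.42 for Krt7, 1.32 for Krt8, 3.08 for Krt18, 2.57 for Krt19 and 3.26 for Epcam, with adjusted p-values of 0.222 to 0.626. EdgeR then called 0 members and 5 genes, 0.0367% of those tested. Without Comb replicate 1, the Comb tumor with few keratin reads, edgeR called all 5 (adjusted p 0.0146 to 0.024) and 28.5% of the genes tested. Snai1 was -0.48 without Comb replicate 3 and -1.31 without Comb replicate 1, with adjusted p-values of 0.549 and 0.0678. The mesenchymal members Vim, Zeb1 and Cdh2 had log2 fold changes nearer 0 with all 12 tumors. Vim was at 0.26 ± 0.2 with TMM scaling and -0.027 without it, Zeb1 at -0.041 ± 0.43, with 0.24 in the absence of Comb replicate 1, and Cdh2 at -0.24 ± 0.45. Leaving out TMM moved the median of all genes in this comparison by -0.25, from -0.033 to -0.29.

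**Figure D3:**
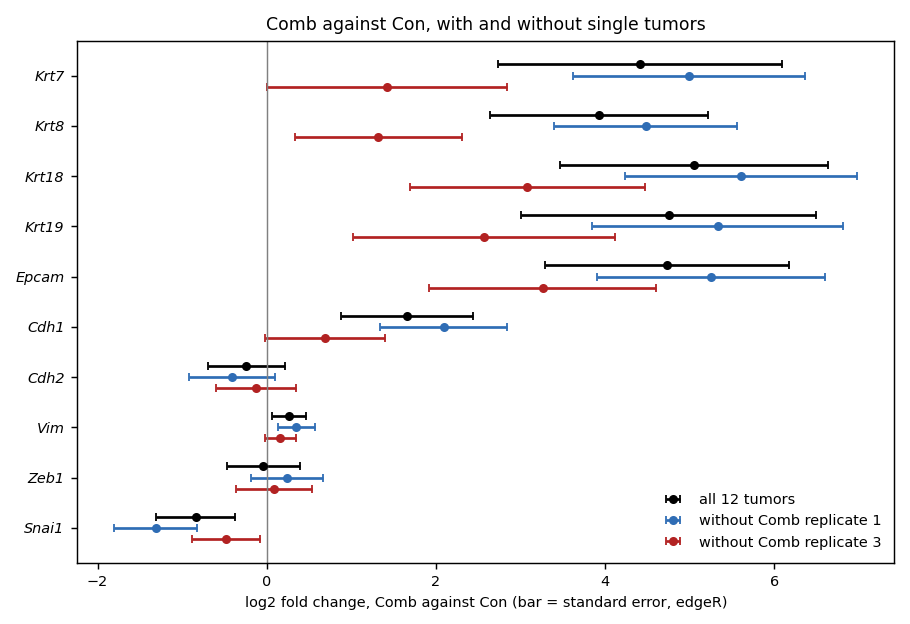
Log2 fold change of Comb against Con from edgeR (horizontal axis, bars give the standard error) for each gene (vertical axis), with all 12 tumors and without Comb replicate 1 or 3. Without Comb replicate 3, Krt7 moved from 4.41 to 1.42 and Krt8 from 3.93 to 1.32, while Cdh2, Vim and Zeb1 lay near 0 in all 3 fits.

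The groups themselves overlapped for most members. Of the 10, Krt18 and Epcam were higher in every Comb than in every Con tumor, as were 7.6% of all genes tested. For either gene a two-sided exact permutation test on the log2 scale gave p = 0.1, which is the smallest value that 3 against 3 tumors allow. Over the 4 groups together, the exact permutation test over all divisions of the 12 tumors into groups of 3 gave p = 0.0476 for Krt8 and p = 0.034 for Epcam before any adjustment for the 10 genes examined. The other 8 members had p-values between 0.0786 (Krt18) and 0.551 (Cdh1). The value for Krt8 was above 0.05 when any 1 of the 12 tumors except Comb replicate 1 was left out, up to 0.202 without Comb replicate 3. That for Epcam was above 0.05 without any 1 of 9 tumors, up to 0.104 without Comb replicate 3. EdgeR called 0 members and 0.0% of genes in the test of any difference among the 4 groups, where 5 members and 17.8% of genes had an unadjusted p under 0.05, and DESeq2 called 5 members and 12.6% of genes. The smallest edgeR adjusted p was 0.111, for Krt8. Without Comb replicate 1 edgeR called the same 5 members and 16.9% of genes, and without Comb replicate 3 it called 0 members.

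The comparison of Comb with PD asks what SFIH added to the antibody. Krt8 was higher in every Comb than in every PD tumor, and so was Epcam, as were 4.25% of genes tested. For Krt8 the margin was small, with 0.792 CPM (8 reads) in Comb replicate 1 and 0.762 CPM (6 reads) in PD replicate 2. The log2 fold changes were 5.29 ± 1.45 for Krt8, 4.48 ± 1.44 for Epcam and 3.69 ± 1.47 for Krt18 (SE), with edgeR adjusted p-values of 0.243, 0.243 and 0.253. EdgeR called 0 of 10 members and 0.0% of genes. Unadjusted, Krt8, Krt18 and Epcam were higher, as were 12.9% of genes, and Snai1 was lower at -1.11 ± 0.47, as were 5.11%. DESeq2 called Krt8 alone of the members (adjusted p = 0.00788), beside 3.23% of genes. Without Comb replicate 3 the values were 2.68 for Krt8, 3 for Epcam, 1.73 for Krt18 and -0.75 for Snai1, and 0 members were called. Krt7 went from 3.02 to 0.03 and Krt19 from 3.34 to 1.16 when that tumor was left out. Without Comb replicate 1 edgeR called these 3 (adjusted p 0.0237 to 0.0485) beside 15.2% of genes.

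The comparison of Comb with SFIH asks what the antibody added to the extract. Krt7 differed most, at 5.77 ± 1.84 (SE), and the other 3 keratins and Epcam were at 3.41 to 4.32, with edgeR adjusted p-values of 0.143 to 0.206 for the 5. EdgeR called 0 members and 0.0% of genes. Unadjusted, these 5 members and 14.8% of genes were higher, and 0 members and 4.22% of genes lower. DESeq2 called Krt7, Krt8 and Krt18 (adjusted p 0.00611 to 0.0259) and 8.62% of genes. Without Comb replicate 3, Krt7 was at 2.77 and the other 4 at 1.2 (Krt8) to 2.35 (Krt18), and edgeR called 0 members. EdgeR called the 5 without Comb replicate 1 (adjusted p 0.0171 to 0.0431) beside 22.5% of genes.

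No member passed the threshold with either agent alone. For SFIH against Con, edgeR called 0 members and 0.0% of genes, 0 members had an unadjusted p under 0.05 against 303 genes (1.2% higher and 1.05% lower), and DESeq2 called 0 members and 4 genes (0.0298%). The log2 fold changes ran from -1.36 ± 1.84 for Krt7 to 1.33 ± 1.46 for Epcam (SE), and those of Vim and Krt8 were 0.024 ± 0.2 and 0.12 ± 1.26. For PD against Con, edgeR called 0 members and 0.0% of genes, 0 members had an unadjusted p under 0.05 against 537 genes (2.31% higher and 1.68% lower), and DESeq2 called 0 members and 6 genes (0.0447%). Krt8 was at -1.36 ± 1.44 and Krt7 at 1.39 ± 1.63, and Cdh1 at 1.3 ± 0.77, all with an edgeR adjusted p of 1. Over all alternatives, PD against Con ranged from -3.56 to -0.73 for Krt8, -1.63 to 1.99 for Krt7 and 0.17 to 1.67 for Cdh1. The standard errors of the keratins were 1.26 to 1.84 in the comparisons of either agent alone with Con, and that of Vim was 0.2.

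Over both factors, the 6 tumors that received the antibody were set against the 6 that did not. Krt7 was at 3.58 ± 1.22, Krt18 at 2.84 ± 1.07, Krt19 at 2.8 ± 1.18 and Cdh1 at 1.31 ± 0.54 (SE, edgeR adjusted p 0.149 to 0.228). EdgeR called 0 members and 0.0% of genes, while these 4 members and 13.4% of genes were higher at an unadjusted p under 0.05. DESeq2 called Krt7 and Krt18 (adjusted p = 0.0155 and 0.0447) and 9.31% of genes. Krt8 was at 1.23 ± 0.99 and at -0.081 without Comb replicate 3, and without that tumor Krt7 was at 2.08, Krt18 at 1.85, Krt19 at 1.71 and Cdh1 at 0.82, with 0 members and 0.0147% of genes called. Over all alternatives Krt18 ranged from 0.98 to 3.36, Krt7 from 2.06 to 3.88, Krt19 from 1.71 to 4.51 and Cdh1 from 0.73 to 1.54. EdgeR without Comb replicate 1 called Krt7 and Krt18 (adjusted p = 0.0254 and 0.0447) beside 17.1% of genes.

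For SFIH over both antibody arms, Epcam was at 2.9 ± 1.03 and Krt8 at 2.7 ± 0.95 (SE, edgeR adjusted p = 0.317 for both). They were at 2.17 and 1.4 without Comb replicate 3, and the unadjusted edgeR p of Krt8 rose from 0.0157 to 0.0773. In that fit 1 member had an unadjusted edgeR p under 0.05, as had 2117 genes. Krt7 went from 0.83 to -0.66 without that tumor. EdgeR and DESeq2 called 0 members, with 0.0% and 2.0% of genes called. Unadjusted, these 2 members and 9.11% of genes were higher, and 0 members and 5.4% of genes lower. Whether SFIH acted differently with the antibody was tested as an interaction. Krt8 had the largest interaction at 5.17 ± 1.9 (unadjusted p = 0.0197, edgeR adjusted p = 0.894), which was 2.57 without Comb replicate 3 (unadjusted p = 0.102), and that of Krt7 went from 4.38 to 1.39. EdgeR called 0 members and 0.0% of genes, with 1 member and 344 genes at an unadjusted p under 0.05 (2.0% positive and 0.557% negative over all genes), and DESeq2 called 0 members and 1 gene (0.00745%).

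Ratios of 2 members within a tumor do not depend on scaling between libraries. A set of 4 such ratios was taken, each as log2 of the counts with 0.5 added. Cdh1 to Cdh2 was -2.28 ± 0.4 in the Con tumors, -1.77 ± 0.68 in the SFIH tumors, -0.57 ± 0.62 in the PD tumors and -0.75 ± 1.59 in the Comb tumors (SD, n = 3). In reads, there were 17.2 to 28.1 Cdh1 reads for every 100 Cdh2 reads in the Con tumors, 17.8 to 46.6 in the SFIH tumors, 40.7 to 87.1 in the PD tumors and 19.7 to 183 in the Comb tumors. Only Comb replicate 3 had more Cdh1 than Cdh2 reads. The 6 tumors given the antibody were higher than the 6 others by 1.37 (two-sided exact permutation p = 0.026), and 5 of the 6 were above the median of the others. The exception was Comb replicate 1 at -2.32. Without Comb replicate 3 the difference was 1.06 (exact permutation p = 0.0433), and without Con replicate 3 it was 1.27 (exact permutation p = 0.0519). Adjusted over the 12 tests made on the ratios, the value was 0.156.

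Krt8 to Vim, a ratio of epithelial to mesenchymal filament transcripts, was -11.55 ± 0.21 in the Con tumors, -11.73 ± 1.34 in the SFIH tumors, -13.89 ± 1.88 in the PD tumors and -9.36 ± 2.46 in the Comb tumors (SD, n = 3). PD replicate 3 was lowest and Comb replicate 3 highest. The 4 groups differed at an exact permutation p of 0.0327 (0.156 adjusted over the 12 ratio tests), which was above 0.05 without Con replicate 1, 2 or 3, SFIH replicate 3, PD replicate 1 or 3, or Comb replicate 2 or 3, at up to 0.119. Between the 6 tumors with and the 6 without the antibody the difference was 0.017 (exact permutation p = 0.991), and it was -0.97 without Comb replicate 3.

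Krt19 to Krt8 was -1.1 ± 1.28 in the Con tumors, -1.72 ± 1.69 in the SFIH tumors, 1.76 ± 1.04 in the PD tumors and -0.41 ± 1.23 in the Comb tumors (SD, n = 3). It was higher with the antibody by 2.08 (exact permutation p = 0.039, 0.156 adjusted over the 12 ratio tests), but 8 of the 12 tumors had 9 reads or fewer of each keratin, and with 5 counts added in place of 0.5 the difference was 0.82 (exact permutation p = 0.0519). Leaving out 1 tumor at a time, the exact p was above 0.05 without Con replicate 3, SFIH replicate 1 or 3, PD replicate 1, 2 or 3, or Comb replicate 2, at up to 0.0801. Krt8 to Krt18 was 1.22 ± 0.69 in the Con tumors, 0.78 ± 1.23 in the SFIH tumors, -0.5 ± 1.81 in the PD tumors and -0.025 ± 0.57 in the Comb tumors. The difference with the antibody was -1.26 (exact permutation p = 0.0671, 0.161 adjusted), and -0.72 with 5 counts added (exact permutation p = 0.026). In Comb replicate 3, where both keratins were well counted, the ratio was 0.22.

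**Figure D4:**
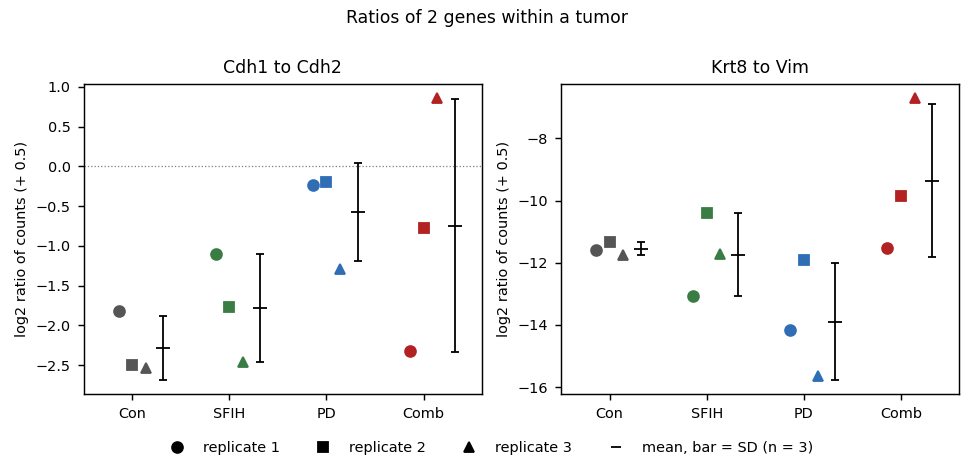
Log2 ratio of Cdh1 to Cdh2 reads (left) and of Krt8 to Vim reads (right) within each tumor (vertical axes) by group (horizontal axes), with the mean and SD over 3 tumors. Cdh1 to Cdh2 lay between -2.53 and -1.1 in the 6 tumors without the antibody and reached 0.86 in Comb replicate 3, and Krt8 to Vim was highest in the same tumor.

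Other genes of the epithelial state were read from a list of 41, covering junctions, epithelial transcription factors and surface proteins, of which 23 passed the filter on low counts. In Comb against Con, edgeR and DESeq2 called 0 and 3 of them, F11r and Cd24a higher and Ctnna1 lower by DESeq2, which called 14.9% of all genes, so that its share of the list was near the background. At an unadjusted edgeR p under 0.05, 5 were higher and 2 lower, beside 18.0% and 7.3% of all genes. The median log2 fold change of the 23 was 0.38, against -0.033 for all genes, and 0.12 without Comb replicate 3. Cd24a, a small surface sialoglycoprotein of epithelial progenitors and of granulocytes and B cells, had 25, 10 and 17 reads in the Con tumors, 32, 19 and 19 in the SFIH tumors, 5, 158 and 77 in the PD tumors, and 60, 290 and 2420 in the Comb tumors. The tumors highest in Cd24a were Comb replicate 3, Comb replicate 2 and PD replicate 2, in the order of the summed keratins, whereas PD replicate 3, with 0.732 CPM of summed keratins, came next at 8.05 CPM, and SFIH replicate 2, the other tumor with raised keratins, was at 1.57 CPM. Its log2 fold change was 6.11 ± 1.47 (SE) in Comb against Con, with an edgeR adjusted p of 0.0665 and a DESeq2 adjusted p of 9.31e-06, and 3.62 without Comb replicate 3 (edgeR adjusted p = 0.117).

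Cldn3, a tight junction claudin, was counted 2, 2 and 0 times in Con against 1, 12 and 59 times in Comb, so that it passed the filter through the tumors with more reads and its fold is uncertain in size. It was at 4.39 ± 1.65 in Comb against Con and at 2.44 without Comb replicate 3 (SE, edgeR adjusted p = 0.134 and 0.443). The most abundant genes of the list, the catenins that link cadherins to the cell's actin and to signaling, had smaller differences. Ctnnb1 (β-catenin) was at 0.18 ± 0.24, or -0.2 without Comb replicate 3, and Ctnnd1 (p120 catenin) was at 0.38 ± 0.44. Ctnna1 (α-catenin) was at -0.44 ± 0.14, with an edgeR adjusted p of 0.0932 and a DESeq2 adjusted p of 0.00323, and at -0.4 without that tumor.

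Of 14 other transcription factors of the EMT program, 12 passed the filter. In Comb against Con, edgeR called 0 and DESeq2 1, Twist1, which was lower, a share of the list below the 14.9% of all genes that DESeq2 called. Unadjusted, 0 were higher and 3 lower (Tcf3, Twist1 and Foxc1), beside 18.0% higher and 7.3% lower over all genes, and the median log2 fold change was -0.68, or -0.2 without Comb replicate 3. Twist1, a mesodermal factor, was at -0.89 ± 0.28 (SE, edgeR adjusted p = 0.0919, DESeq2 adjusted p = 0.0275) and at -0.62 without Comb replicate 3. Foxc1 was at -0.91 ± 0.36 (edgeR adjusted p = 0.15) and at -0.54 without that tumor. Zeb2, the relative of Zeb1 that macrophages and other leukocytes also express, pointed the other way at 0.6 ± 0.28 (adjusted p = 0.21), or 0.34 without that tumor. Tcf4 and Prrx1, the other abundant factors of the list, were at 0.41 ± 0.21 and -0.17 ± 0.48.

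Other mesenchymal genes were read from a list of 33, all of which passed the filter. In Comb against Con, edgeR called 0 and DESeq2 15, all higher, beside 14.9% of all genes called by DESeq2. Unadjusted, 18 were higher and 0 lower, beside 18.0% and 7.3% of all genes, and the median log2 fold change was 0.8, or 0.5 without Comb replicate 3. F11r and Tcf3 were named after their values were seen. For any antibody against none, edgeR called 0 and DESeq2 15, beside 9.31% of all genes called by DESeq2, and the median was 0.67 (0.41 without Comb replicate 3). Cdh11, the cadherin of fibroblasts and bone-forming cells, had 42, 29 and 43 reads in the Con tumors, 44, 49 and 89 in the SFIH tumors, 107, 157 and 142 in the PD tumors, and 78, 568 and 449 in the Comb tumors. All 3 Comb tumors were above all 3 Con tumors, as were 7.6% of all genes, and SFIH replicate 3, at 9.11 CPM, was above Comb replicate 1, at 7.73. Its log2 fold change was 3.6 ± 0.71 in Comb against Con and 3.38 without Comb replicate 3 (SE, edgeR adjusted p = 0.0665 and 0.0882).

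Lum, a proteoglycan of collagen fibrils, had 75, 73 and 138 reads in the Con tumors, 64, 113 and 169 in the SFIH tumors, 119, 156 and 184 in the PD tumors, and 197, 815 and 5363 in the Comb tumors. Comb lay above Con in all 3 tumors here too, as for 7.6% of all genes, and Comb replicate 1 at 19.5 CPM was level with PD replicate 2 at 19.8. The log2 fold change of Lum against Con was 4.85 ± 1.07 (SE, edgeR adjusted p = 0.0665), or 2.69 without Comb replicate 3. Des, the intermediate filament of muscle, was at 4.52 ± 1.06 and at 2.97 without that tumor, beside the muscle markers given above. The matrix genes Sparc and Col3a1 were at 2.01 ± 0.55 and 2.32 ± 0.64, and at 1.11 and 1.34 without Comb replicate 3. Lgals1, the most abundant gene of the list beside these, was at 0.46 ± 0.22. Fibroblasts also express Lum, Cdh11, Sparc and Col3a1, the sums of fibroblast markers in Comb replicates 2 and 3 are given above, and their part in these values was not tested.

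For the 5 members with a mean of 50 reads or more, the genes whose log2(CPM + 1) ran most nearly parallel over the 12 tumors were listed by Pearson's r. These are the highest values among 13464 genes and are descriptive, and the points share libraries and depth. For Cdh1 they were Ncald (r = 0.973), Dnaaf3 (0.953) and Adrbk1 (0.951), and without PD replicate 2 and Comb replicate 3, the tumors farthest from the median, r was 0.87, 0.843 and 0.78. For Cdh2 they were Dync2li1 (0.894), Mrap (0.825) and Insl6 (0.822), and without Con replicate 3 and PD replicate 1 r fell to 0.772, 0.485 and 0.538. For Vim they were Zbtb7a (0.885), Pdcd1 (0.856), which encodes PD-1, and Ptk2b (0.855), with r of 0.833, 0.827 and 0.803 without the 2 farthest tumors. For Zeb1 they were Prrx1 (0.928), itself a mesenchymal transcription factor, Medag (0.916) and Arsj (0.909), and without the 2 farthest tumors r was 0.825, 0.763 and 0.8. For Snai1 they were Mta1 (0.975), Cnep1r1 (0.95) and Sppl3 (0.948), with r of 0.929, 0.94 and 0.912 without the 2 farthest.

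The reads of 4 members could be shared with a gene on the opposite strand. In the GENCODE annotation, Krt7, Krt8, Cdh2 and Zeb1 overlap such a gene. Of these partners, only Gm10125, opposite Zeb1, had a row in the count table, with 1 read over the 12 tumors. The use of strand in the counting is not given in the sources used here.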

How the data were processed

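Total RNA of 12 tumors was sequenced with a 3′ mRNA kit (QuantSeq), and the authors deposited raw read counts per gene symbol, 1 column per tumor. Aligner, counter, build and annotation are not given in the sources used here. The 10 members and the gene lists were chosen with earlier results of these data known. Counts were tested with edgeR 4.0.16 (filterByExpr, TMM, quasi-likelihood F test, group means only, Benjamini-Hochberg, threshold 0.05), tested on simulated data, and with DESeq2 1.42.0 as an alternative, in R 4.3.3. Levels used CPM from total counts with a pseudocount of 1. Exact permutation tests were two-sided. Depth was 7870741 to 12261032 reads. From each list, values are given for the 3 tested genes with the lowest adjusted p over the 4 groups and the 3 with the highest mean, except 1 gene that is not reported here. Alternatives were no TMM, upper-quartile scaling, other filters, fits of only the groups compared, the replicate number as a block, and each tumor left out. Flg of the 193 list genes was not found. Replicates differed by more than sampling noise.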

Additional observations from a re-analysis of the deposited data

How the results depend on the processing

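The 10 members and the counts of calls were recomputed under 2185 combinations of result and alternative, of which 1998 kept their direction and side of the threshold. The keratins and Epcam had 3 reads or fewer in 2 to 8 tumors each, and what depth and the spread between tumors each contributed to their errors was not tested. Leaving out 1 tumor at a time, edgeR called members only without Comb replicate 1; the cause was not tested.

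With DESeq2 in place of edgeR, the genes called were 4 for SFIH against Con, 6 for PD against Con, 1998 for Comb against Con, 417 for Comb against PD, 1157 for Comb against SFIH, 1250 for any anti-PD-1 against none, 268 for any SFIH against none, 1 for the interaction and 1690 for any difference, where edgeR called 0 in each, and the members called were 5 for Comb against Con, 1 for Comb against PD, 3 for Comb against SFIH, 2 for any anti-PD-1 and 5 for any difference. Without TMM, the log2 fold change of Vim turned to -0.027 in Comb against Con and -0.06 in Comb against SFIH, that of Cdh2 to -0.17 and of Zeb1 to -0.014 in Comb against SFIH, and the interaction of Cdh1 to -0.26, which was -0.059 without a filter on low counts. For any SFIH, Vim was at 0.0051 with upper-quartile scaling. With genes of a mean of 50 counts or more, Zeb1 was at 0.024 in Comb against Con and Vim at 0.0044 in Comb against PD, and for any SFIH Cdh2 was at 0.004 and Vim at 0.016. With TMM-scaled sizes the exact permutation p of Krt8 over the 4 groups was 0.0544. With 5 counts added, the ratios differed between tumors with and without anti-PD-1 by -0.72 for Krt8 to Krt18 and 0.82 for Krt19 to Krt8.

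Same-numbered tumors deviated together in 7 of 18 pairs (correlation over 0.1, range -0.21 to 0.36), and 3 of 12 tumors correlated best with their own number. Pairing by number was thus not shown, but so few tumors cannot exclude it. With the replicate number as a block edgeR called 0 genes and 0 members in every comparison, and Krt8 and Krt19 in SFIH against Con turned to -0.13 and -0.54, and Cdh2 for any SFIH to 0.029.

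Leaving out 1 tumor at a time, the genes called ranged from 0 to 3943 for Comb against Con, 0 to 2100 for Comb against PD, 0 to 3118 for Comb against SFIH, 0 to 281 for any SFIH, 0 to 2370 for any anti-PD-1 and 0 to 2344 for any difference, each highest without Comb replicate 1. Without Comb replicate 3, 5 genes were called for Comb against Con and 2 for any anti-PD-1. The members called ranged from 0 to 5, 0 to 3, 0 to 5, 0 to 2 and 0 to 5 for Comb against Con, Comb against PD, Comb against SFIH, any anti-PD-1 and any difference. The exact permutation p over the 4 groups ranged from 0.0499 to 0.801 for Krt7, 0.00558 to 0.202 for Krt8, 0.0215 to 0.407 for Krt18, 0.0336 to 0.738 for Krt19 and 0.0158 to 0.104 for Epcam. That of Epcam was above 0.05 without any 1 of 9 tumors, and Krt7, Krt18 and Krt19 fell below 0.05 without Comb replicate 1, Krt18 also without PD replicate 2.

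For the ratios, the exact permutation p over the 4 groups ranged from 0.0253 to 0.282 for Cdh1 to Cdh2, 0.0205 to 0.193 for Krt19 to Krt8, 0.036 to 0.557 for Krt8 to Krt18 and 0.00539 to 0.119 for Krt8 to Vim, and the difference with anti-PD-1 from 1.06 to 1.7, 1.65 to 2.57, -1.63 to -1 and -0.97 to 0.82.

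Log2 fold changes that changed sign without a tumor ranged, for SFIH against Con, from -0.12 to 0.69 (Cdh1), -0.86 to 2.05 (Epcam), -0.32 to 1.16 (Krt18), -2.86 to 1.14 (Krt19), -0.72 to 0.51 (Krt8), -0.17 to 0.33 (Snai1), -0.12 to 0.12 (Vim) and -0.58 to 0.054 (Zeb1). For PD against Con they ranged from -2.33 to 1.97 (Krt18), -0.61 to 1.91 (Krt19), -1.63 to 1.99 (Krt7), -0.32 to 0.98 (Epcam) and -0.0043 to 0.54 (Snai1). For Comb they ranged from -0.6 to 1.47 (Cdh1 against PD), -0.12 to 0.95 (Cdh2 against PD), -0.08 to 0.2 (Cdh2 against SFIH), -0.16 to 0.04 (Vim against PD), -0.56 to 0.24 (Zeb1 against Con) and -0.27 to 0.54 (Zeb1 against SFIH). Krt8 for any anti-PD-1 ranged from -0.081 to 1.64. For any SFIH they ranged from -0.66 to 2.33 (Krt7), -0.13 to 0.91 (Cdh1), -0.22 to 0.31 (Cdh2) and -0.087 to 0.031 (Vim), and for the interaction from -0.95 to 1.12 (Cdh1), -0.19 to 0.069 (Vim) and -0.62 to 0.2 (Zeb1). None of these was called with all 12 tumors.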
